A study of Mus musculus with 6 samples.

Results

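The transcripts described here are 33 genes of fatty acid oxidation in mouse liver, headed by Ppara, which encodes the nuclear receptor PPAR alpha, and its coactivator gene Ppargc1a. The members were named by symbol, with earlier results of these data known but no threshold on a measured value. They cover uptake and activation, the carnitine shuttle, the oxidation spiral of mitochondria, the peroxisomal pathway, and classical PPAR alpha targets. All 33 symbols were found among the 41388 gene identifiers of the counts table, and all 33 passed the filter on low counts that left 12988 genes for testing. Their levels were compared between 3 liver libraries from Atp7b-/- mice and 3 from wild type mice. Both genotypes were of strain C57BLx129S6SvEv, 6 weeks old and, by the labels alone, of both sexes, and ate the same diet with 16 ppm copper. Atp7b encodes the ATPase that moves copper into bile and onto ceruloplasmin, and its human counterpart is mutated in Wilson disease. The sources used here do not give how the allele was made, the time of day at which livers were taken, or any fasting before that.

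PPAR alpha is a receptor for fatty acids and their derivatives. With its partner RXR it binds DNA elements in or near genes of fatty acid use, and in liver it is best known for raising fat oxidation and ketone body production during fasting. Long-chain fatty acids are bound in the cytosol, activated to acyl-CoA, carried into mitochondria as carnitine esters and shortened there in a repeating cycle of reactions. Very long chains are first shortened in peroxisomes.

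Total counts were 16597683, 6746192 and 25973968 in Atp7b-/- replicates 1 to 3 and 23651080, 12258024 and 5919389 in wild type replicates 1 to 3. The layout was paired-end for Atp7b-/- replicate 3 and wild type replicate 1 and single-end for the rest, and it was a term of the test. Levels are in CPM, counts divided by the library size after scaling by TMM factors, and sets of 3 values are in the order of replicates 1 to 3. Log2 fold changes (log2FC) are Atp7b-/- over wild type. Atp7b, the targeted gene, was at 19.2, 13.7 and 13.3 CPM in Atp7b-/- livers, against 25.3, 85.2 and 59.7 CPM in wild type livers. It fell in edgeR's quasi-likelihood test (log2FC -1.73, SE 0.30, adjusted p = 0.02) and was called in 10 of 15 alternative fits. The copper-binding metallothionein gene Mt2 rose by 3.98 on the log2 scale (adjusted p = 0.00101, called in 13 of the 15). Mt1 rose by 3.66 (adjusted p = 0.0337), but its libraries overlapped, at 421 CPM in Atp7b-/- replicate 3 against 831 CPM in wild type replicate 2, and it was called in 8 of the 15. With single-end libraries only, Mt1 missed the threshold (adjusted p = 0.133). The sex-linked transcripts go against the labels of 2 libraries. Atp7b-/- replicate 3, labelled female, had 0.482 CPM of Xist and 126 CPM of the Y-linked gene Ddx3y. Wild type replicate 3, also labelled female, had both (17.4 CPM of Xist and 28.0 CPM of Ddx3y). Values without these libraries are therefore given beside the members that the results turn on. The summed level of 11 hepatocyte markers was 78085, 77028 and 88661 CPM in Atp7b-/- livers, against 127105, 120936 and 89459.6 CPM in wild type livers. Every Atp7b-/- library was thus below every wild type library in that sum, but Atp7b-/- replicate 3 only barely below wild type replicate 3. None of these 11 markers passed the test, and their median log2FC was -0.22. All 10 sinusoidal endothelium markers had negative values (median -0.35), at a summed 556, 664 and 231 CPM in Atp7b-/- livers, against 259, 913 and 754 CPM in wild type livers. The medians were -0.04 for Kupffer cell, 0.02 for stellate cell and 0.74 for cholangiocyte markers. No marker on any of these lists was called, and their part in the members' values was not tested.

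None of the 33 members passed the test at an adjusted p under 0.05. Across all 12988 genes 323 did (2.49%), with 247 higher (1.9%) and 76 lower (0.585%) in Atp7b-/- livers. The members leaned toward lower TMM-scaled levels by small amounts: 25 of 33 (75.8%) had a negative log2FC, as did 50.9% of all genes. Their median was -0.19, with the middle 50% between -0.47 and -0.05, beside a median of -0.01 and a middle 50% of -0.28 to 0.26 over all genes. The TMM factors differed by genotype, at 1.03, 1.06 and 1.12 in Atp7b-/- libraries and 0.928, 0.961 and 0.912 in wild type libraries. Dividing by them lowers Atp7b-/- levels relative to wild type levels, and the part of this scaling in the lean was not tested. The members' median was -0.15 with upper-quartile factors and -0.21 with DESeq2 size factors in edgeR. At an unadjusted p under 0.05 there were 7 members (21.2%), which were Slc27a2, Fabp1, Acsl1, Ppargc1a, Acaa1b and Cyp4a14 with lower values and Pdk4 with a higher value. The share over all genes was 14.5%. In whole liver, fewer cells of a type and less RNA per cell cannot be told apart.

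The intervals show how large a change the data leave room for. In 23 of 33 members (69.7%) the 95% interval of the log2FC lay within 1 of 0 on that scale, and this was so for 56.3% of all genes. The median standard error was 0.21 for the members and 0.26 for all genes. In 3 members the CPM of every Atp7b-/- library lay below that of every wild type library, against 3.28% of all genes, and in no member did every Atp7b-/- library lie above (5.23% of all genes). These 3 were Slc27a2, Fabp1 and Acsl1, the uptake and activation genes. Taken as a share of all counts, the 33 members together held 1.02%, 1.19% and 1.01% in Atp7b-/- replicates 1 to 3 and 1.23%, 1.38% and 1.38% in wild type replicates 1 to 3. Without Fabp1 the shares were 0.891%, 0.883% and 0.802% in Atp7b-/- livers and 0.860%, 1.09% and 0.970% in wild type livers, and the genotypes overlapped.

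**Figure D1:**
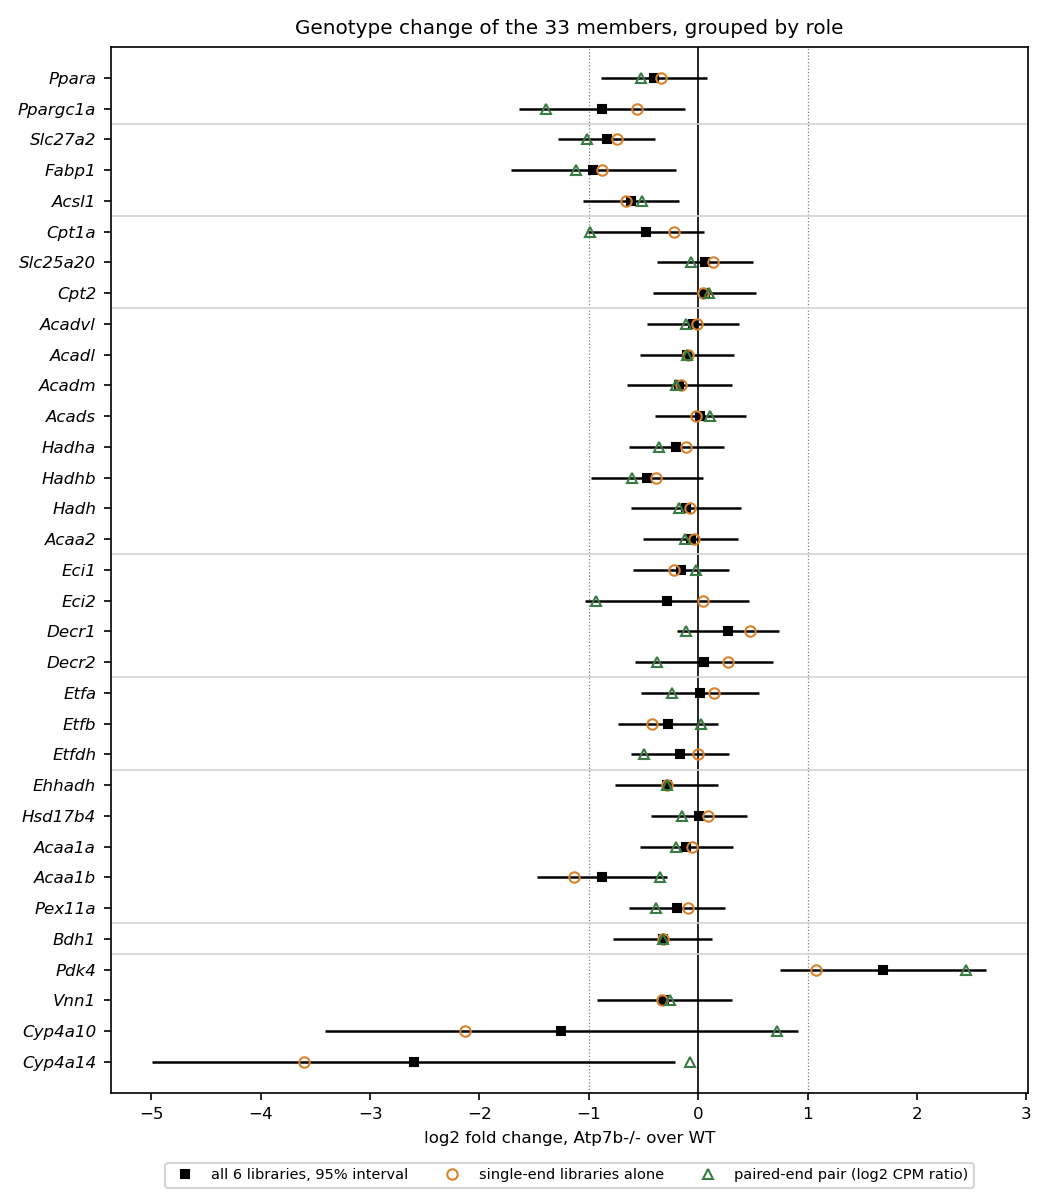
Log2FC (Atp7b-/- over WT) of each of the 33 members, with its 95% interval from edgeR's quasi-likelihood fit of all 6 libraries (squares), grouped by role; open circles are the single-end libraries alone and triangles the ratio of the paired-end libraries. Most points lie a little left of 0, the intervals of the 8 spiral enzymes all stay within 1 of 0, and Cyp4a10, Cyp4a14 and Pdk4 have the widest intervals.

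The 2 regulators were lower on average in Atp7b-/- livers, with libraries that overlapped. Ppara (ENSMUSG00000022383, chromosome 15, 85734983 to 85802819, plus strand, GRCm38) was at 114, 111 and 71.7 CPM in Atp7b-/- livers, against 103, 173 and 112 CPM in wild type livers. Atp7b-/- replicates 1 and 2 lay within the wild type range and replicate 3 below it (log2FC -0.40, SE 0.21, adjusted p = 0.439; 95% interval -0.88 to 0.08). Ppargc1a (ENSMUSG00000029167, chromosome 5, 51454250 to 51567726, minus strand) encodes PGC-1 alpha, a coactivator that raises mitochondrial gene expression in fasting. It had 7.93, 8.14 and 5.96 CPM in Atp7b-/- livers, against 16.5, 15.9 and 7.41 CPM in wild type livers. Only wild type replicates 1 and 2 stood above every Atp7b-/- library, while wild type replicate 3 had a level between those of Atp7b-/- replicates 3 and 1. The mean was 7.34 ± 1.203 CPM in Atp7b-/- livers and 13.3 ± 5.08 CPM in wild type livers (SD, n = 3 each), and the test gave a log2FC of -0.88 (SE 0.33, 95% interval -1.64 to -0.12, adjusted p = 0.267). Without wild type replicate 3 the adjusted p was 0.0636, and without Atp7b-/- replicate 3 it was 0.576 with a log2FC of -0.56.

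Among 18 other genes of the PPAR and RXR families and their co-regulators, 1 fell, none rose and 17 did not pass the test; 15 values were negative and the median was -0.14. The gene that fell was Ppargc1b, which encodes PGC-1 beta, a relative of PGC-1 alpha. It had 17.5, 19.2 and 1.72 CPM in Atp7b-/- livers, against 6.08, 39.8 and 41.3 CPM in wild type livers. Within each layout the Atp7b-/- libraries were below the wild type ones, but the single-end Atp7b-/- libraries exceeded the paired-end wild type library (log2FC -1.35, SE 0.22, adjusted p = 0.0129). The call was lost when wild type replicate 1, Atp7b-/- replicate 3 or both replicates numbered 3 were left out (adjusted p = 0.0883, 0.0983 and 0.116). Rxra, the main RXR gene of hepatocytes, had a log2FC of -0.57 (SE 0.21, adjusted p = 0.245) and the acetyltransferase gene Ep300 one of -0.41 (SE 0.18, adjusted p = 0.339).

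The 3 genes that take up, bind and activate fatty acids were the members in which the libraries of the genotypes did not overlap. Slc27a2 (ENSMUSG00000027359, chromosome 2, 126552407 to 126588243, plus strand) encodes FATP2, which brings in long-chain fatty acids and activates very long ones. It had 578, 617 and 568 CPM in Atp7b-/- livers, against 1151, 1019 and 982 CPM in wild type livers. The 6 libraries formed 2 groups by genotype in both layouts, at 588 ± 25.6 CPM in Atp7b-/- livers and 1051 ± 89.3 CPM in wild type livers (SD, n = 3 each), a 1.78-fold lower level in Atp7b-/- livers. The test gave a log2FC of -0.83 (SE 0.20, 95% interval -1.28 to -0.39, adjusted p = 0.0672), the smallest adjusted p of the members, and missed the threshold. DESeq2 and limma-voom, which called 5.93% and 3.05% of the same 12988 genes, did call it (adjusted p = 3.55e-05 and 0.0373). Leaving out wild type replicate 3 gave -0.88, leaving out Atp7b-/- replicate 3 gave -0.73 and leaving out both gave -0.77 (adjusted p = 0.103, 0.254 and 0.284).

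Fabp1 (ENSMUSG00000054422, chromosome 6, 71199827 to 71205023, plus strand) encodes the fatty acid-binding protein of liver cytosol, which carries ligands toward the nucleus. It stood at 1232, 2891 and 1829.8 CPM in Atp7b-/- livers, against 3965, 3070.1 and 4542 CPM in wild type livers. The lowest wild type library was only slightly above the highest Atp7b-/- library, and the Atp7b-/- libraries differed more than 2-fold among themselves. The test gave a log2FC of -0.96 (SE 0.33, 95% interval -1.72 to -0.21, adjusted p = 0.22). With no filter on low counts, where 4.44% of genes were called, Fabp1 was among them (adjusted p = 0.00934), and without both replicates numbered 3 its log2FC was -0.57 (adjusted p = 0.761). Acsl1 (ENSMUSG00000018796, chromosome 8, 46471037 to 46536051, plus strand) encodes the main long-chain acyl-CoA synthetase of liver. Its levels were 689, 729.6 and 1031 CPM in Atp7b-/- livers, against 1469, 1079 and 1173 CPM in wild type livers. The ranges met closely but did not cross (log2FC -0.61, SE 0.19, adjusted p = 0.171; 95% interval -1.05 to -0.17), and DESeq2 called it (adjusted p = 0.00528). It is shown by library because of this separation, a choice made after its values were seen. Without both replicates numbered 3 Acsl1 had a log2FC of -0.60 (adjusted p = 0.449).

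Promoter sequences are shown for Fabp1 and Acsl1, whose genotypes separated, and for Pdk4, the member with the largest positive value, because PPAR alpha with RXR is known to bind a direct repeat of the half-site AGGTCA with 1 base between the copies (DR1). They are RefSeq sequences of build GRCm38.p6, given 5′ to 3′ on the gene's strand up to the first annotated exon, at chr6:71199629-71199826 (plus strand), chr8:46470787-46471036 (plus strand, first start) and chr6:5496310-5496528 (minus strand). Capitals mark a DR1 with 1 mismatch, read on the strand opposite to the gene, whose first base lies at -67 from the RefSeq start of Fabp1.
Fabp1: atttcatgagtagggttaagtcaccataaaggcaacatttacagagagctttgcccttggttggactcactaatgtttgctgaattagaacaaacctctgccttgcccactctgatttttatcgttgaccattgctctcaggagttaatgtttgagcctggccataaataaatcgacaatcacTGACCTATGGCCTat
Acsl1: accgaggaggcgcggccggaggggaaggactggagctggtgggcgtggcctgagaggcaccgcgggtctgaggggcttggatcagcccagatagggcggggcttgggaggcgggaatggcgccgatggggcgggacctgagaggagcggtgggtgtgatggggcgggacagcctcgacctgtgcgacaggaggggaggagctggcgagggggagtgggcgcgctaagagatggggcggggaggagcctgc
Pdk4: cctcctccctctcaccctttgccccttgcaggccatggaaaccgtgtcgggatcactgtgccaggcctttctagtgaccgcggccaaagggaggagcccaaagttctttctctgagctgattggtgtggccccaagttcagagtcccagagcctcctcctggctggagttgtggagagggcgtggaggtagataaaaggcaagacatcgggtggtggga
Promoter windows of 300 bases, from 250 before to 50 after the start, were found for 27 members, with 29 windows in all, and not for Decr1, Cyp4a10, Cyp4a14, Vnn1, Hsd17b4 and Acaa2. A DR1 with at most 1 mismatch, searched on both strands, occurred in 1 of the 29 (3.45%), that of Fabp1, and in 182 of all 32851 windows in the table (0.554%). An exact DR1 occurred in 0 of the 29 and in 13 of all windows (0.0396%). The window of Slc27a2, which also separated the genotypes, was searched without a match. Its sequence is not shown because no bases remain ahead of the first annotated exon. No match says only that these letters are not in the window searched.

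**Figure D2:**
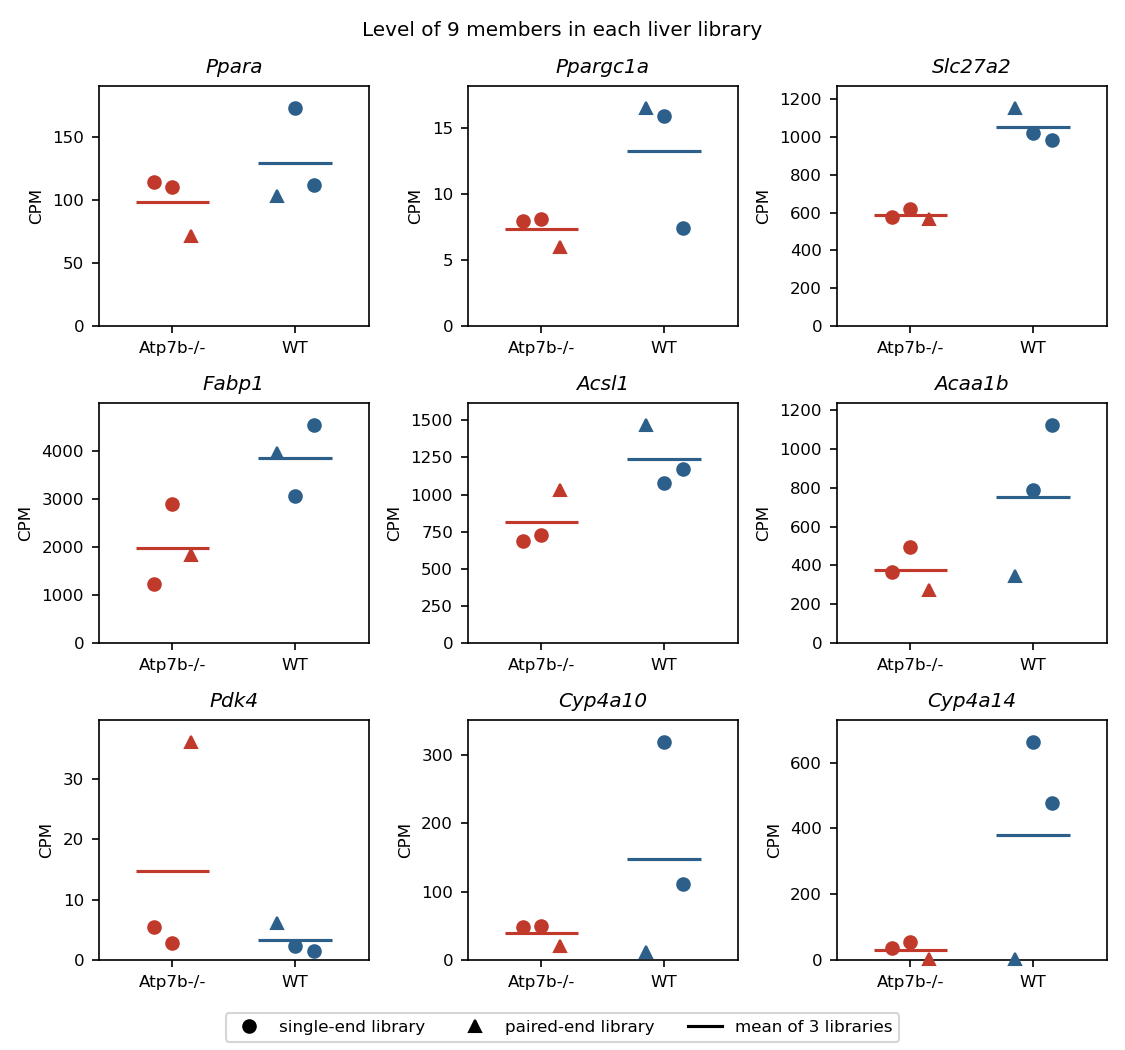
CPM of 9 members in each library, with Atp7b-/- left of WT; circles are single-end and triangles paired-end libraries, and the line is the mean of 3. Slc27a2, Fabp1 and Acsl1 do not overlap between genotypes, and the paired-end libraries of both genotypes are near the bottom for Cyp4a14.

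The carnitine shuttle, which carries acyl groups across the inner mitochondrial membrane, had no member past the test. Cpt1a encodes the liver form of carnitine palmitoyltransferase 1, the step at which entry is controlled. It had 568, 612 and 216 CPM in Atp7b-/- livers, against 428, 781 and 601 CPM in wild type livers. The paired-end libraries were the lowest of the 6, and the single-end libraries of the genotypes overlapped (log2FC -0.48, SE 0.23, adjusted p = 0.398; paired-end against single-end -1.05, adjusted p = 0.00849). The carrier gene Slc25a20 was at 111, 91.3 and 90.6 CPM in Atp7b-/- livers, against 95.1, 104 and 81.0 CPM in wild type livers (log2FC 0.06, SE 0.19, adjusted p = 0.925). Cpt2, which releases the acyl group inside the mitochondrion, had a log2FC of 0.06 (adjusted p = 0.934; 95% interval -0.41 to 0.53).

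The 8 genes of the mitochondrial spiral differed little between genotypes. Their log2FC values ran from -0.47 (Hadhb) to 0.02 (Acads), with 7 of 8 negative, a median of -0.11 and all 8 intervals within 1 of 0. The 4 acyl-CoA dehydrogenases, which take the first oxidation step on chains of falling length, were at -0.05 for Acadvl, -0.10 for Acadl, -0.17 for Acadm and 0.02 for Acads (adjusted p = 0.94, 0.863, 0.773 and 0.98). Acadm, the medium-chain enzyme, stood at 299 ± 61.7 CPM in Atp7b-/- livers and 338 ± 85.1 CPM in wild type livers (SD, n = 3 each), so its genotype difference was smaller than the spread between libraries. The thiolase gene Acaa2, the most abundant of the 8, was at 879.6 ± 93.3 CPM in Atp7b-/- livers and 922 ± 72.7 CPM in wild type livers (log2FC -0.07, adjusted p = 0.91). Hadh, which encodes the short-chain hydroxyacyl-CoA dehydrogenase, had a log2FC of -0.11 (adjusted p = 0.87).

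Hadha and Hadhb encode the 2 subunits of the trifunctional protein, and lie head to head (Hadha ENSMUSG00000025745, chromosome 5, 30118304 to 30155162, minus strand; Hadhb ENSMUSG00000059447, chromosome 5, 30155248 to 30184593, plus strand). Hadha had a log2FC of -0.20 (SE 0.19, adjusted p = 0.699). Hadhb was counted at 21.4, 13.6 and 53.9 CPM in Atp7b-/- livers, against 82.5, 26.01 and 20.02 CPM in wild type livers (log2FC -0.47, SE 0.23, adjusted p = 0.394), with the paired-end library the highest of each genotype. Per length of exon it stood at 12.7 ± 10.3 TPM in Atp7b-/- livers and 15.3 ± 12.3 TPM in wild type livers, against 126 ± 23.2 TPM in Atp7b-/- livers and 124 ± 21.0 TPM in wild type livers for Hadha. Of the 54-base windows of Hadhb transcripts, 19.2% also occur in transcripts of other genes, most of them of the pseudogene Gm13910. The sources used here do not say whether reads with several matches were counted, so the level of Hadhb is uncertain. The same holds for Acadvl, which shares 25.7% of its windows, mostly with its neighbour Dvl2.

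Enzymes that prepare unsaturated fatty acids for the spiral went both ways, 2 negative and 2 positive, without a call. Decr1, the mitochondrial dienoyl-CoA reductase, was at 130.3, 113 and 188 CPM in Atp7b-/- livers, against 203.9, 95.9 and 80.3 CPM in wild type livers. Atp7b-/- replicate 3 and wild type replicate 1, the paired-end libraries, were the highest of the 6 (log2FC 0.27, SE 0.21, adjusted p = 0.607; paired-end against single-end 0.93, adjusted p = 0.00596). The isomerase genes Eci1 and Eci2 had log2FC values of -0.16 and -0.28, and the peroxisomal reductase gene Decr2 one of 0.05 (adjusted p = 0.777, 0.762 and 0.96).

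Electron transfer flavoprotein takes the electrons of the acyl-CoA dehydrogenases and passes them to the respiratory chain through Etfdh. Its subunit gene Etfb had 434, 359.9 and 191 CPM in Atp7b-/- livers, against 188, 535 and 533 CPM in wild type livers (log2FC -0.28, SE 0.20, adjusted p = 0.589). The paired-end libraries were nearly equal, and the single-end Atp7b-/- libraries were below the single-end wild type ones. Of its transcript windows 43.8% also occur elsewhere, nearly all in the transcript model Gm45233, so its count is uncertain. Etfa and Etfdh had log2FC values of 0.01 and -0.17 (adjusted p = 0.989 and 0.766), and the intervals of all 3 genes stayed within 1 of 0.

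Of the 5 peroxisomal members none was called, 4 had negative values, and Acaa1b had the lowest value. Acaa1a and Acaa1b (ENSMUSG00000010651, chromosome 9, 119148023 to 119157093, minus strand) encode near-identical thiolases of the peroxisome. Acaa1b was at 367, 496 and 273 CPM in Atp7b-/- livers, against 348, 787 and 1122 CPM in wild type livers. In every layout the Atp7b-/- libraries were the lower, but the paired-end wild type library lay among the Atp7b-/- values (log2FC -0.88, SE 0.26, adjusted p = 0.143; 95% interval -1.47 to -0.29). DESeq2 and the fit with no filter on low counts called it (adjusted p = 0.0377 and 0.0156), and without both replicates numbered 3 its log2FC was -0.87 (adjusted p = 0.227). Acaa1a had 152, 178 and 111 CPM in Atp7b-/- livers, against 128, 156 and 189.6 CPM in wild type livers, with full overlap (log2FC -0.11, SE 0.19, adjusted p = 0.846). Acaa1b shares 38.0% and Acaa1a 16.1% of their windows with other genes, so reads may have been split or dropped between the copies. Ehhadh, the bifunctional enzyme of the inducible pathway, had a log2FC of -0.29, the peroxisome division gene Pex11a one of -0.19 and Hsd17b4 one of 0.01 (adjusted p = 0.588, 0.711 and 0.993).

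Bdh1, which interconverts the 2 main ketone bodies, was at 505, 412 and 265 CPM in Atp7b-/- livers, against 332, 631 and 517 CPM in wild type livers (log2FC -0.33, SE 0.20, adjusted p = 0.507). It was lower in Atp7b-/- libraries within each layout by similar amounts, -0.32 in the single-end fit and -0.33 for the ratio of the paired-end libraries, both on the log2 scale. None of the 9 tested ketone body genes outside the members passed the test either (5 negative, median -0.20). Aacs, which activates acetoacetate for lipid synthesis, and the transporter gene Slc16a6 had log2FC values of -1.24 and -0.33 (adjusted p = 0.504 and 0.647).

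Pdk4 (ENSMUSG00000019577, chromosome 6, 5483351 to 5496309, minus strand) was the member with the largest positive value. It encodes a kinase that shuts the pyruvate dehydrogenase complex when fat is the fuel. It was read with 94, 21 and 1049 counts in Atp7b-/- livers, against 136, 29 and 8 counts in wild type livers. Scaled, these are 5.48, 2.95 and 36.1 CPM in Atp7b-/- livers, against 6.22, 2.46 and 1.48 CPM in wild type livers. The single-end Atp7b-/- libraries lay within the wild type range, whose top was the paired-end library. Atp7b-/- replicate 3 alone stood far above every other library. Within each layout the Atp7b-/- libraries were above the wild type ones, narrowly so in the single-end libraries (2.95 against 2.46 CPM at the closest). The test gave a log2FC of 1.69 (SE 0.42, 95% interval 0.74 to 2.63, adjusted p = 0.0818). The single-end libraries alone gave a log2FC of 1.07 (adjusted p = 0.39). Pdk4 was called by DESeq2, by limma-voom, with no filter on low counts, and in edgeR when either replicate numbered 2 was dropped (adjusted p = 0.0121, 0.0193, 2.25e-05, then 0.0216 without wild type replicate 2 and 0.0373 without Atp7b-/- replicate 2). Those last fits called 2.34% and 2.08% of all genes. Without Atp7b-/- replicate 3 it had a log2FC of 1.08 (adjusted p = 0.392), and without both replicates numbered 3 one of 0.81 (adjusted p = 0.667).

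Other transcripts also stood apart in the paired-end libraries or in single libraries, and some of them in Atp7b-/- replicate 3. Summed over 7 adipocyte markers, the level was 0.117, 0.421 and 22.0 CPM in Atp7b-/- livers, against 32.95, 0.17 and 0.927 CPM in wild type livers. Over 8 muscle markers it was 1.05, 2.39 and 1.03 CPM in Atp7b-/- livers, against 59.9, 1.70 and 5.38 CPM in wild type livers. Both paired-end libraries had all 7 adipocyte markers above 0, whereas 5 or 6 of the 7 were at 0 in each single-end library, and the muscle actin gene Acta1 reached 28.7 CPM in wild type replicate 1 only. The clock gene Arntl was at 10.8, 0.281 and 43.2 CPM in Atp7b-/- livers, against 3.24, 0.935 and 0.371 CPM in wild type livers. Dbp, which the clock drives in opposite phase and which was picked after its values were seen, was at 58.1, 231 and 0.999 CPM in Atp7b-/- livers, against 48.6, 286 and 319.9 CPM in wild type livers. In both, Atp7b-/- replicate 3 was at an extreme of the 6 libraries. The part of these transcripts in the Pdk4 difference was not tested. Among 17 tested clock genes, Hlf fell by 0.92 on the log2 scale (adjusted p = 0.0323, lost when any single library was left out) and the other 16 did not pass (14 of 17 negative, median -0.83). Tef, a relative of Dbp, and Arntl had log2FC values of -1.24 and 3.38 (adjusted p = 0.325 and 0.302). None of the 9 tested genes listed for pyruvate dehydrogenase control passed the test (7 negative, median -0.22). The kinase genes Pdk2 and Pdk1 had log2FC values of -0.64 and -0.65 and the subunit gene Pdhb one of -0.27 (adjusted p = 0.147, 0.202 and 0.648).

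**Figure D3:**
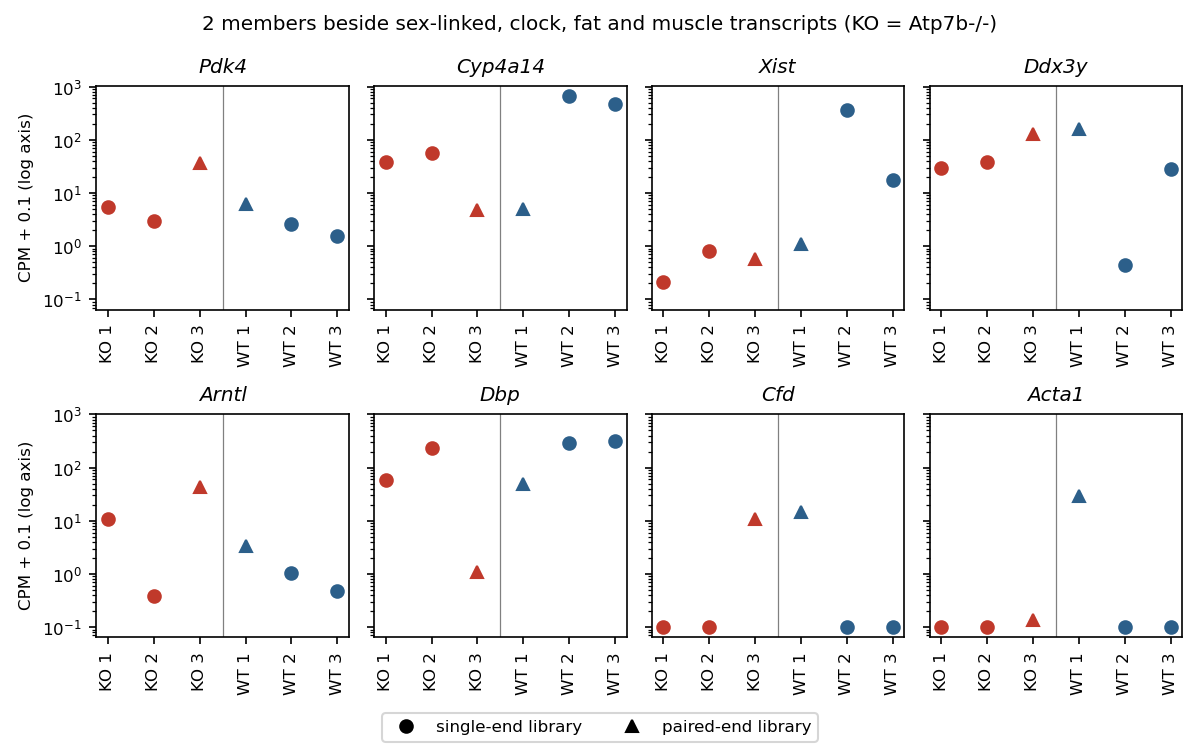
Level of the single genes Pdk4, Cyp4a14, Xist, Ddx3y, Arntl, Dbp, Cfd (an adipocyte marker) and Acta1 (a muscle marker) in each library. Values are CPM plus a small constant on a log axis, with Atp7b-/- left of WT, circles for single-end and triangles for paired-end libraries. Atp7b-/- replicate 3 is highest for Pdk4 (36.1 CPM) and Arntl (43.2 CPM), and Cfd is above 0 in both paired-end libraries.

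The fatty acid omega-hydroxylase genes Cyp4a10 and Cyp4a14, classical PPAR alpha targets that lie close together on chromosome 4, had the largest standard errors of the members. Cyp4a14 (ENSMUSG00000028715, chromosome 4, 115486200 to 115496142, minus strand) had 37.8, 56.1 and 4.61 CPM in Atp7b-/- livers, against 4.89, 663 and 477 CPM in wild type livers. The single-end Atp7b-/- libraries were far below the single-end wild type libraries, and the paired-end libraries of the 2 genotypes were nearly equal and lower still. Over all libraries the test gave a log2FC of -2.60 (SE 0.91, 95% interval -4.99 to -0.21, adjusted p = 0.309). The single-end libraries alone, where 1.03% of genes were called, gave a log2FC of -3.60 (adjusted p = 0.0189). The paired-end ratio was -0.08, and the test of that difference between layouts had an adjusted p of 0.253. Cyp4a14 was also called without wild type replicate 1 or Atp7b-/- replicate 3 (log2FC -3.60 and -3.59, adjusted p = 0.0154 and 0.0194; 1.01% and 0.92% of all genes called), which leaves a single paired-end library that the layout term fits exactly. Cyp4a14 was not called without wild type replicate 2 or 3 (log2FC -2.19 and -2.53, adjusted p = 0.435 and 0.61). Nor was it called without Atp7b-/- replicate 1 or 2 (log2FC -1.90 and -2.22, adjusted p = 0.82 and 0.638). In the single-end libraries the Atp7b-/- samples are labelled male and the wild type samples female. Genotype and labelled sex therefore cannot be told apart there. By the sex-linked transcripts Atp7b-/- replicate 3 looked male, against its label, and the other libraries low in Cyp4a14 are labelled male. The libraries high in Cyp4a14, wild type replicates 2 and 3, are labelled female, and replicate 3 had transcripts of both sexes. Those libraries were also the highest for Cyp4a10. Apparent sex thus went with both genes across all libraries, and its part in their values was not tested.

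Cyp4a10 (ENSMUSG00000066072, chromosome 4, 115518264 to 115533649, plus strand) had the same pattern among the single-end libraries, at 48.4, 49.8 and 20.8 CPM in Atp7b-/- livers, against 12.4, 318 and 111 CPM in wild type livers. Here the paired-end Atp7b-/- library was above the paired-end wild type library, and the test gave a log2FC of -1.25 (SE 0.82, 95% interval -3.42 to 0.91, adjusted p = 0.578). Of its windows 27.5% also occur in other genes, mostly in Cyp4a32, against 0.0786% for Cyp4a14, so the Cyp4a10 count is uncertain. Leaving out single libraries moved the log2FC of Cyp4a10 between -2.13 without wild type replicate 1 and -0.41 without wild type replicate 2, its highest library (adjusted p = 0.128 and 0.717). Without both replicates numbered 3, wild type replicate 2 is the only single-end wild type library, the layout term fits the lone paired-end library exactly, and the spread comes from Atp7b-/- replicates 1 and 2 alone. That fit called both genes and 2.35% of all genes (Cyp4a10 -2.70, adjusted p = 0.000331; Cyp4a14 -3.82, adjusted p = 0.000101). Vnn1, which encodes a pantetheinase, had a log2FC of -0.31 (SE 0.27, adjusted p = 0.669).

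PPAR alpha targets outside the members also had mostly negative values. Of 20 tested genes 1 fell, none rose and 19 did not pass the test; 15 values were negative and the median was -0.31, beside -0.01 over all genes. The gene that fell was Acot1, a cytosolic acyl-CoA thioesterase with near-identical relatives, so that its count is uncertain. It had 3.56, 6.45 and 2.41 CPM in Atp7b-/- livers, against 7.08, 31.5 and 37.6 CPM in wild type livers (log2FC -2.40, SE 0.35, adjusted p = 0.00805), and every Atp7b-/- library was below every wild type library. The call held without any single library and was lost without the layout term (adjusted p = 0.530) and with labelled sex in its place (adjusted p = 1). Aldh3a2, the fatty aldehyde dehydrogenase gene, had 193, 215 and 164 CPM in Atp7b-/- livers, against 276, 589.5 and 382 CPM in wild type livers and missed the threshold narrowly (log2FC -1.09, SE 0.23, adjusted p = 0.0503). Mgll, the monoglyceride lipase gene, also kept the genotypes apart (log2FC -0.83, SE 0.19, adjusted p = 0.0645). Angptl4 had a log2FC of -0.32, Fgf21 one of -0.27, and Plin2 and Cd36 of 0.19 and 0.52 (adjusted p = 0.929, 0.898, 0.821 and 0.552); these 4 were chosen after their values were seen, as well-known targets.

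Further oxidation genes had no call in either direction. Of 20 tested mitochondrial genes outside the members 11 were negative, with a median of -0.06. The lowest p-values were those of Mlycd, which removes the CPT1 inhibitor malonyl-CoA, the transporter gene Slc27a4 and the synthetase gene Acsl4, with log2FC values of -0.64, -0.46 and 0.46 (adjusted p = 0.173, 0.305 and 0.348). Of 30 peroxisomal genes 14 were negative, with a median of 0.04. Here the peroxisome assembly genes Pex26 and Pex2 and the racemase gene Amacr had -0.76, 0.46 and -0.39 (adjusted p = 0.12, 0.28 and 0.388). Of 10 other fasting-responsive genes 7 were negative (median -0.39) and none passed. Sds, which degrades serine, had 49.9, 105 and 18.6 CPM in Atp7b-/- livers, against 198, 141 and 163 CPM in wild type livers (log2FC -1.75, SE 0.62, adjusted p = 0.296), with every Atp7b-/- library below every wild type one. Irs2 and Pck1, of insulin signalling and glucose production, had log2FC values of -0.46 and -1.14 (adjusted p = 0.446 and 0.563).

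Layout went with differences of its own. Between paired-end and single-end libraries 9 of 33 members differed in the same fit, 3 higher and 6 lower in paired-end libraries, beside 52.8% of all genes. The largest of these were Cyp4a14 at -4.77, Pdk4 at 2.44 and Hadhb at 1.72 on the log2 scale. Within layouts the genotype differences had a median of -0.12 in the single-end libraries and -0.24 for the ratio of the paired-end libraries (0.5 CPM added to each). They had the same sign in both layouts in 24 members (22 negative in both and 2 positive in both), which is 72.7%, beside 58.4% of all genes. The test of the difference between layouts has 1 paired-end library per genotype and rests on the spread between single-end libraries alone. It called 0.0154% of all genes and none of the members (lowest adjusted p = 0.253), which does not show that their genotype differences were alike in the layouts.

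**Figure D4:**
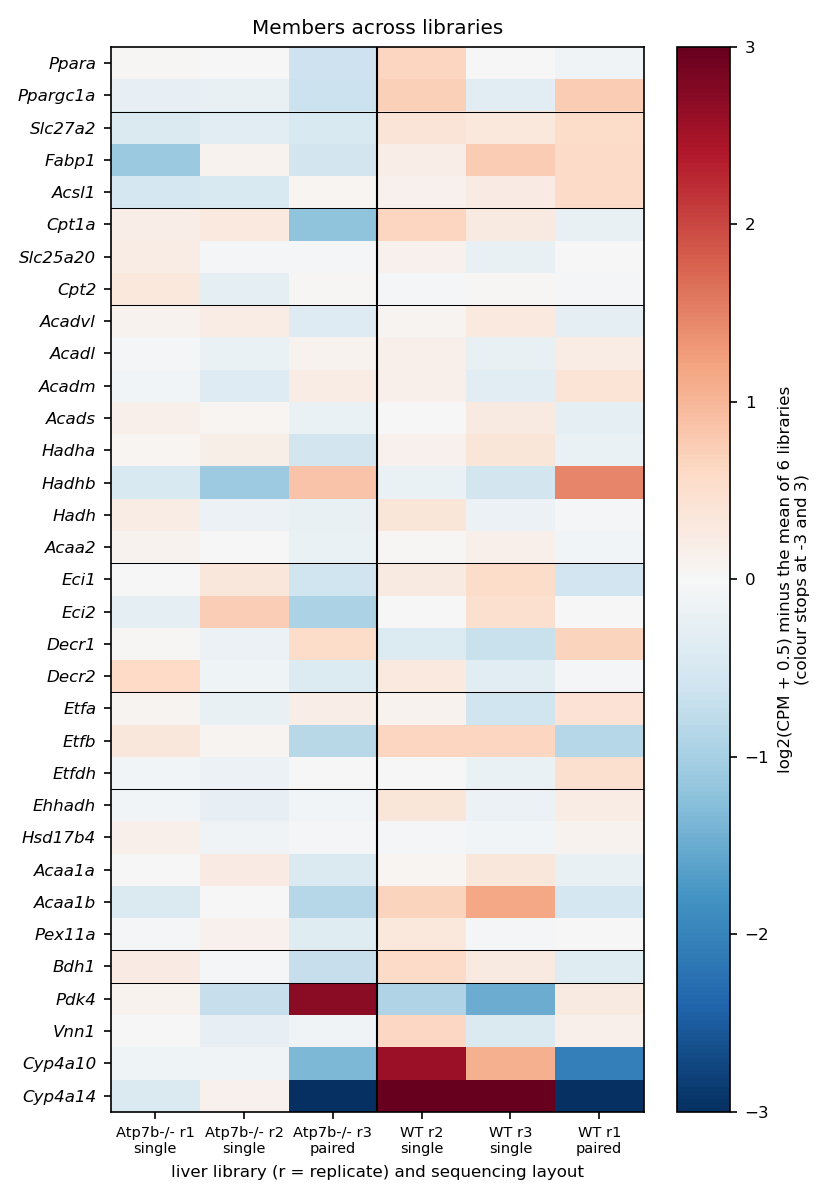
Level of each member in each library, as log2 CPM minus the member's mean over the 6 libraries, with the Atp7b-/- libraries left of the WT libraries and members grouped by role. Slc27a2 changes colour at the genotype boundary, whereas Cyp4a14 and Hadhb stand out in the paired-end libraries, Atp7b-/- replicate 3 and WT replicate 1.

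Levels of different members were ordered per length, in TPM computed from the counts and the merged exon length. This scale is not adjusted by TMM and serves only for the order. Fabp1 led in both genotypes, at 9784 ± 4046 TPM in Atp7b-/- livers and 16275 ± 2514 TPM in wild type livers (SD, n = 3 each), followed by Acaa2 at 1571 ± 42.1 TPM in Atp7b-/- livers and 1424 ± 95.4 TPM in wild type livers. At the low end were Pdk4 at 12.3 ± 16.1 TPM in Atp7b-/- livers and 2.27 ± 1.67 TPM in wild type livers and Ppargc1a at 3.01 ± 0.273 TPM in Atp7b-/- livers and 4.76 ± 1.93 TPM in wild type livers, where single libraries overlapped and the order between the pair is not fixed. Ppara lay in the lower part of the order, at 69.1 ± 11.3 TPM in Atp7b-/- livers and 79.5 ± 26.4 TPM in wild type livers. Of the members that separated the genotypes, Slc27a2 held place 5, Fabp1 place 1 and Acsl1 place 10 of 33 in wild type livers.

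**Figure D5:**
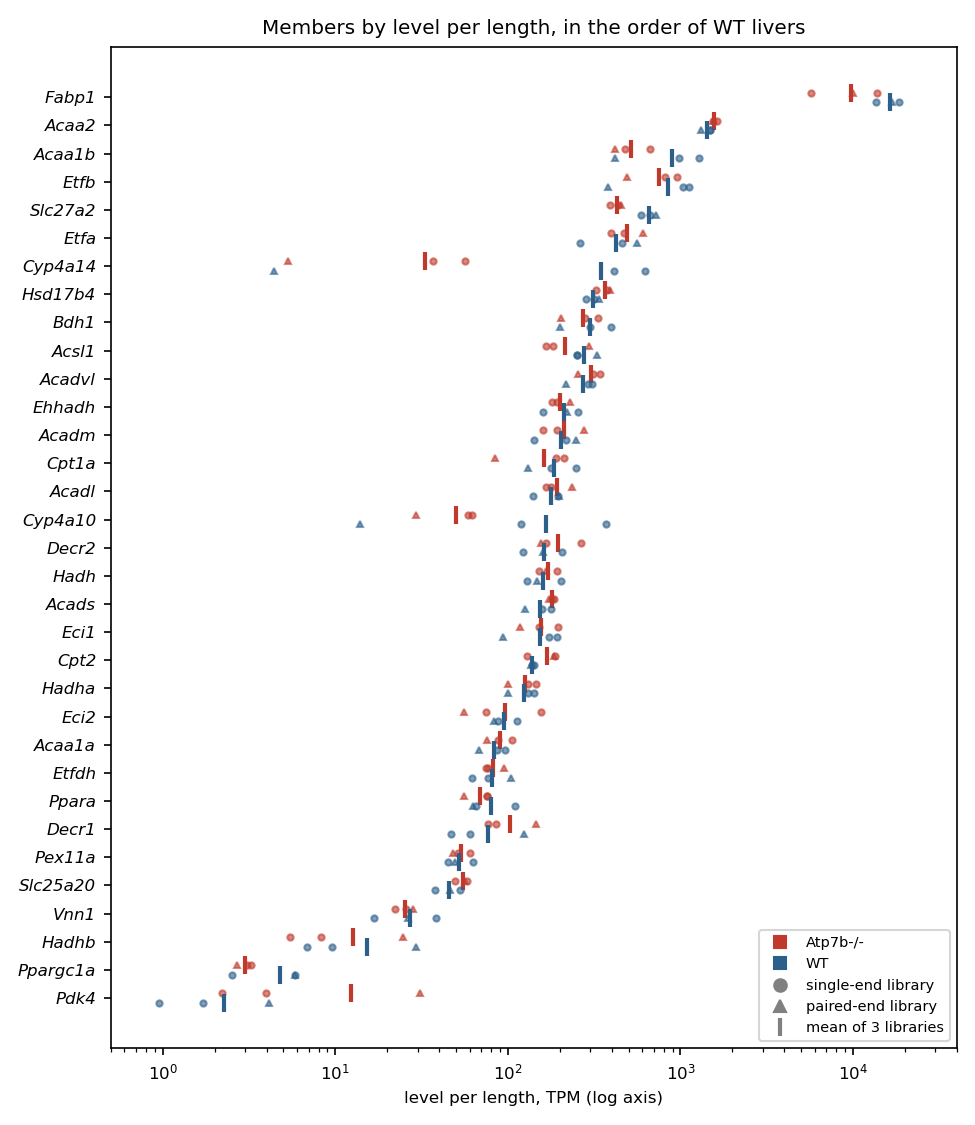
Level per length of each member (TPM, log axis) in each library, with the mean of 3 libraries as a bar, Atp7b-/- above WT in each row and members in the order of WT livers. Fabp1 is highest in both genotypes, Pdk4 and Ppargc1a are lowest, and Cyp4a10 and Cyp4a14 spread over more than a factor of 10.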

How the data were processed

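Liver RNA of mice aged 6 weeks was sequenced with reads of 54 bases. The authors deposited raw counts per Ensembl gene with no normalization. STAR 2.4, featureCounts with no version, edgeR 3.8 and build GRCm38 were used per the submitters' processing notes. The sources used here do not give the annotation release, the strand setting, or how read pairs and reads with several matches were counted. Columns were assigned through the sample numbers in the labels, and replicate numbers only follow deposition. Since separate animals are not stated, p-values reflect differences between libraries that could be technical. Every pair of libraries within a genotype differed beyond sampling noise (chi-square per gene 37.9 to 492).

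Genotype was tested in R 4.3.3 with edgeR 4.0.16. Genes were filtered at a minimum count of 10 and scaled by TMM (factors 1.03 to 1.12 in Atp7b-/- and 0.912 to 0.961 in wild type libraries). The quasi-likelihood test was robust and two-sided, had terms for layout and genotype, and was adjusted by Benjamini-Hochberg over 12988 genes, with calls at an adjusted p under 0.05. By the labels, sex and genotype are confounded inside each layout. DESeq2 1.42.0, limma-voom (limma 3.58.1), other scalings and leave-outs were alternatives, and the code was tested on simulated data. There edgeR called 18.2% of the genes changed by 1 on the log2 scale and 68.7% of those changed by 2. A missing call therefore does not show that a member was unchanged. Symbols, coordinates and exon lengths came from GENCODE, whose transcripts were also compared by windows of 54 bases, and promoters came from RefSeq.

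The members and lists were chosen with earlier results of these data known, so lists are described by counts and medians without a test. Values per library are given for the member with the smallest p in each role, Ppara, Ppargc1a, the 3 highest and 3 lowest log2 fold changes, and near-identical copies. Of other lists the 3 genes with the smallest p are named, and exceptions are marked in the text. Some genes that these lists count are not reported here by name. A differential expression table named in the labels was not used here.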

Additional observations from a re-analysis of the deposited data

How the results depend on the processing

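No member passed the threshold with DESeq2 size factors or upper-quartile factors in edgeR, with no layout term, or with labelled sex replacing layout. Members called higher numbered 1 with no filter on low counts, 1 with DESeq2 and 1 with limma-voom (Pdk4 each time), and 0 to 1 when libraries were left out. Members called lower numbered 3 with no filter on low counts, 3 with DESeq2, 1 with limma-voom, 1 in the single-end libraries alone, and 0 to 2 in the leave-outs, where 2 was the value without both replicates numbered 3 (an alternative added after seeing the data). Over all genes, calls higher in Atp7b-/- livers numbered 672 with no filter, 468 with DESeq2, 103 in the single-end libraries alone and 96 to 242 in the leave-outs. Calls lower numbered 444 with no filter, 302 with DESeq2, 23 in the single-end libraries alone and 22 to 93 in the leave-outs. With no layout term or with labelled sex, calls were 0 higher and 0 lower, and edgeR gave 545 and 381 genes at an unadjusted p under 0.05.

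The number of members with negative values was 24 to 28 in the alternatives that kept all libraries of a layout and 23 to 30 in the leave-outs. Members with ranges apart numbered 3 to 11 lower and 0 to 2 higher in the leave-outs, where fewer libraries have to separate; 11 was the value without both replicates numbered 3, and 8 that without wild type replicate 1 or wild type replicate 3. The log2 fold changes of some members turned sign, and the cause was not tested. They were Etfa -0.00037, Hsd17b4 -0.011 with DESeq2 size factors in edgeR, Etfa -0.00069, Hsd17b4 -0.011 with DESeq2, Acadvl 0.0034 with upper-quartile factors, Etfa -0.014 with no layout term, Decr2 -0.058, Etfa -0.049, Hsd17b4 -0.033 with labelled sex, and Acads -0.020, Eci2 0.046 in the single-end libraries alone. When libraries were left out, the ranges that crossed 0 were Slc25a20 -0.054 to 0.16, Cpt2 -0.11 to 0.23, Acadvl -0.11 to 0.088, Acadl -0.27 to 0.020, Acads -0.038 to 0.12, Hadha -0.28 to 0.0042, Hadh -0.32 to 0.050, Acaa2 -0.10 to 0.013, Eci2 -0.71 to 0.30, Decr2 -0.23 to 0.28, Etfa -0.20 to 0.20, Etfdh -0.27 to 0.0075, Hsd17b4 -0.079 to 0.097, Acaa1a -0.19 to 0.083 and Vnn1 -0.76 to 0.057. No paired analysis was possible because the labels give the genotypes no shared replicate numbers. Depth limits Pdk4 most among the members, with 8 counts in wild type replicate 3.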
